A study of Danio rerio with 18 samples.

Results

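The CHD chromatin remodeller family was followed as 10 genes in intestines and kidneys of zebrafish larvae, among 32520 genes counted in all. The genes were chd8, its close relatives chd6, chd7 and chd9, the pair chd1 and chd2, the Mi-2 genes chd3, chd4a and chd4b, and chd1l. They were found by their Ensembl zebrafish symbol with case ignored, chd8 being ENSDARG00000075543. That search matched 9 of the 10. The remaining one, chd4a, was taken to be the gene whose symbol is written CHD4 (ENSDARG00000063535), because the RefSeq gene table names only chd4a and chd4b and chd4b was another gene of the tables. All 10 genes passed the filter on low counts in every comparison.

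CHD proteins are motors that use ATP to slide, space or evict nucleosomes, and most of them carry a pair of chromodomains that read histone tails. CHD8 binds beta-catenin and dampens Wnt target genes in mammalian cells, and disruptive variants of human CHD8 are among the best known genetic causes of autism, often with a large head and gut complaints. In vertebrates many genes of the family have a close copy of similar structure, so the levels of the copies in a mutant are of interest.

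The study held 6 groups of 3 libraries, all from fish of the AB strain. The mutant group is labelled chd8-/-, and its embryos came from parents that mated in water of the circulating fish system and were then kept in embryo medium. The germ-free group (GF) was wild type. GF eggs were washed in sterile medium and held for hours in medium with antibiotics, then passed through polyvinylpyrrolidone and sodium hypochlorite washes and grown in sterile medium. The conventionally raised group (CV) was wild type from the same spawnings, kept in embryo medium without those steps. The parents of both wild type groups had spawned in system water that was autoclaved, so genotype, rearing and any collection batch cannot be told apart between chd8-/- and CV. Each condition was sampled as kidney at 7 days and as intestine at 5 days after fertilization. Kidney is the blood-forming organ of this fish, and here tissue and age cannot be told apart. RNA came from pools, given as about 70 (kidney) and 40 (intestine) embryos for chd8-/-, and as 50 (kidney) and 30 (intestine) for GF and CV. It is not stated whether each number stands for 1 library. The lesion of the chd8 allele is not given in the sources used here, and a count over the whole gene does not show whether its product works. Whether replicates were separate clutches is not stated in the labels. The p-values below therefore cover the scatter among these libraries, and that scatter may be technical only.

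Totals per library were 27291597 to 31268453 counts for kidney and 26809112 to 36624972 counts for intestine. Levels are given as CPM, meaning read counts brought to the same library size by TMM scaling over the 18 libraries, in the order of replicates 1, 2 and 3. CPM is not corrected for gene length, so levels are compared between samples of a gene and never between genes. Enterocyte markers summed to between 272 and 927 CPM in the kidney libraries and between 8913 and 14982 CPM in the intestine libraries. The kidney libraries also held exocrine pancreas markers (40485 to 89823 CPM) and muscle markers (56694 to 111186 CPM). In the intestine libraries these summed to 15505 to 39115 CPM and 8621 to 14749 CPM. Of 19 tubule and podocyte markers, 12 were higher and 4 lower in the kidney than in the intestine for chd8-/- fish. The counts were 11 and 4 for GF, and 13 and 4 for CV fish (edgeR adjusted p under 0.05). Of all 22823 genes, 3617 were higher and 3978 lower for chd8-/-, 3473 and 4527 for GF, and 4193 and 4868 for CV fish. The summed level of the 19 markers went the other way, with 1398 to 1950 CPM in the kidney libraries and 2935 to 5009 CPM in the intestine libraries. Several libraries stood apart from their group. CV kidney replicate 1 had 3750 CPM of epidermis markers, against 18738 and 23122 CPM in its fellow libraries. GF intestine replicate 3 had 1044 CPM of neuron and retina markers, against 85.6 and 86.7 CPM in its fellows. GF kidney replicate 2 was the lowest of its group in 9 of the 10 family genes, and at 33.4 CPM its chd8 lay inside the chd8-/- range although the library is labelled wild type.

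The level of chd8 itself is given first. With the lesion not given, it cannot show whether a library is mutant. In the kidney it measured 30.2, 34.7 and 38.9 CPM in chd8-/-, 53.8, 33.4 and 54.0 CPM in GF, and 45.8, 51.2 and 51.7 CPM in CV fish. In the intestine it measured 31.8, 34.3 and 41.3 CPM in chd8-/-, 62.4, 57.7 and 62.6 CPM in GF, and 53.4, 51.4 and 55.8 CPM in CV fish. Every chd8-/- library lay below every CV library of its tissue, yet each mutant library still held at least 30.2 CPM of reads on the gene. Among all genes tested, chd8-/- and CV libraries did not overlap for 30.4% in the intestine and 15.8% in the kidney. Ordered by mean, the groups ran from GF intestine (60.9 ± 2.75 CPM) through CV intestine (53.5 ± 2.17), CV kidney (49.6 ± 3.23), GF kidney (47.1 ± 11.9) and chd8-/- intestine (35.8 ± 4.93) to chd8-/- kidney (34.6 ± 4.37; SD, n = 3 each). Among neighbours in that order, only the ranges of GF and CV intestine did not overlap.

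**Figure D1:**
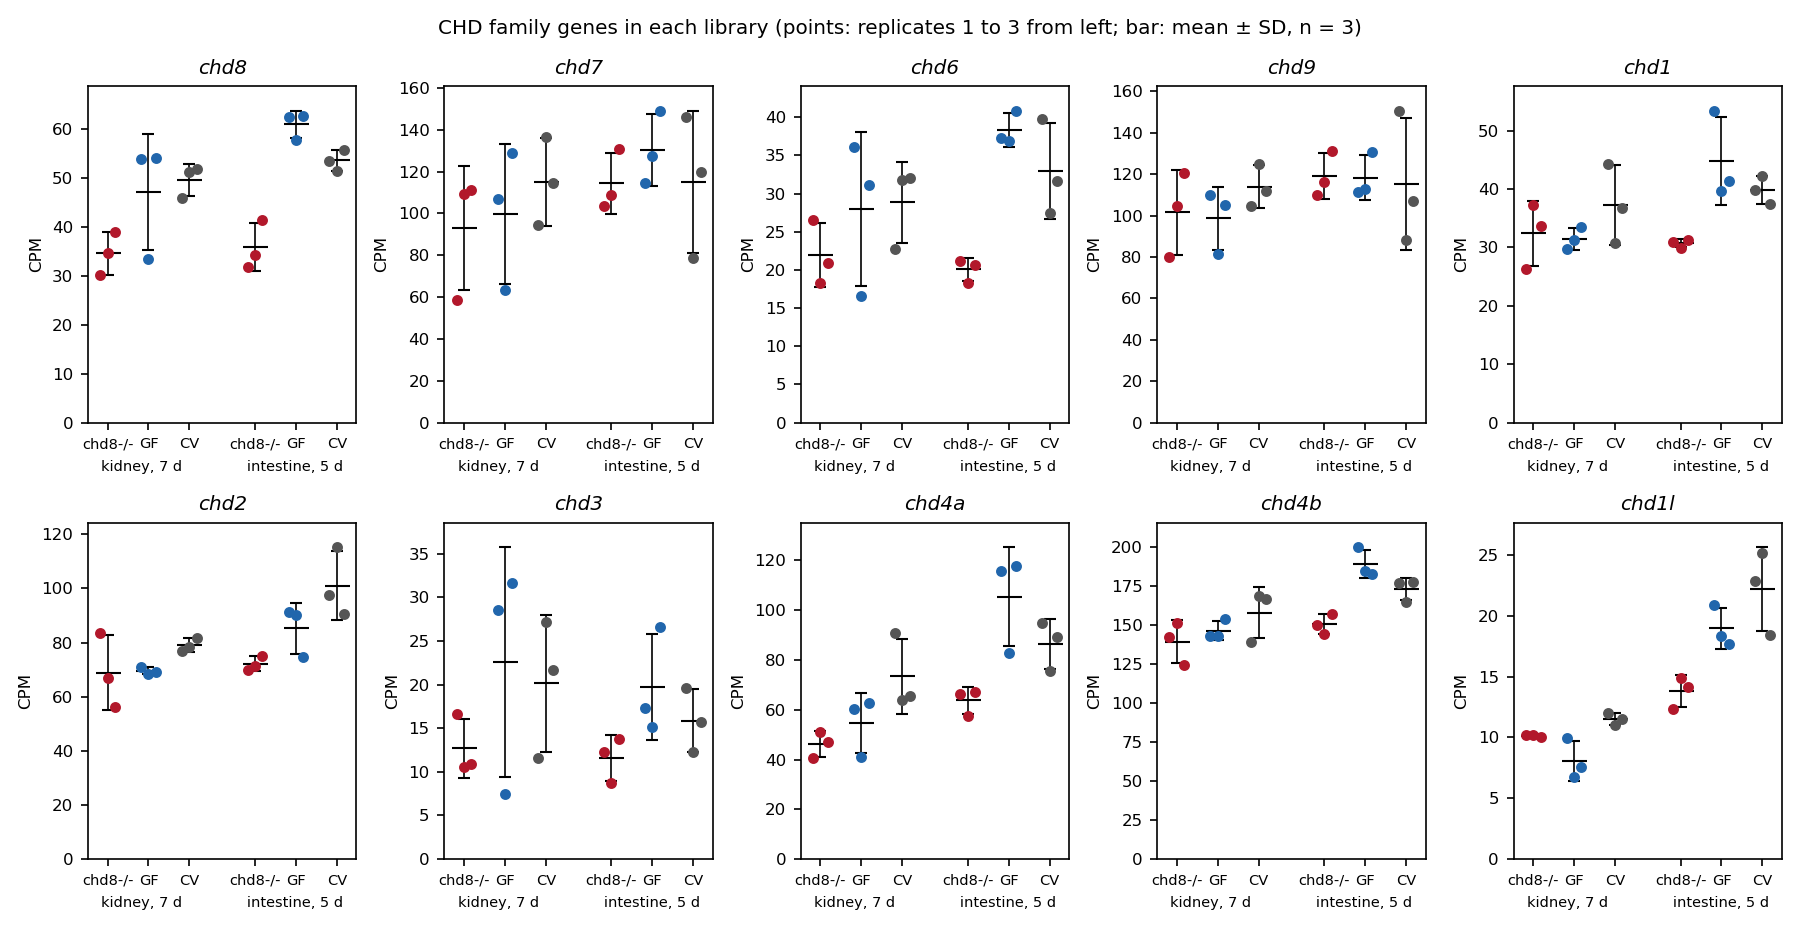
Levels of the 10 family genes in every library, in CPM (linear axes from 0, 1 panel per gene), with chd8-/-, GF and CV kidney on the left and the same groups of the intestine on the right. Points are replicates 1 to 3 and bars are the mean ± SD. Among the intestine groups chd8, chd6, chd1, chd4a, chd4b and chd1l were lowest in the chd8-/- libraries, whereas chd7 and chd9 had overlapping ranges in all 3.

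In the intestine, chd8-/- over CV, 3 family genes fell at an adjusted p under 0.05 (edgeR quasi-likelihood test, Benjamini-Hochberg over all genes tested), namely chd8, chd6 and chd1l, and none rose. Of the 20758 genes tested, 1903 (9.17%) passed this threshold, and 1077 (5.19%) did so as lower. For chd8 the log2 fold change was −0.60 (SE 0.15, edgeR adjusted p = 0.0292), which puts chd8-/- at 66.2% of CV with a 95% interval from 52.9% to 82.7%. In such bulk samples, fewer cells of a type and less RNA per cell cannot be told apart. Cell-cycle markers moved in the same comparison. Of 24 tested proliferation markers 14 were lower and none higher, and the list summed to 416, 387 and 392 CPM in chd8-/- against 506, 730 and 717 CPM in CV intestine. Of 11 erythroid markers 7 were lower and 1 higher. The part of either cell group in the levels of the family genes was not tested.

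Of the closest relatives of chd8, chd6 passed the threshold in chd8-/- intestine, while chd7 and chd9 did not. Whether these genes differ from each other in their change was not tested. Most like chd8 was chd6, a remodeller linked in human cells to the response to oxidative stress. It measured 21.2, 18.3 and 20.7 CPM in chd8-/-, 37.2, 36.9 and 40.8 CPM in GF, and 39.8, 27.5 and 31.7 CPM in CV intestine. No chd8-/- value reached any of the 6 wild type values. Its log2 fold change over CV was −0.73 (SE 0.17, edgeR adjusted p = 0.0220), or 60.2% of CV (95% interval 46.6% to 77.8%). The relative chd7, the gene mutated in human CHARGE syndrome, measured 103, 109 and 131 CPM in chd8-/-, 115, 128 and 149 CPM in GF, and 146, 78.7 and 120 CPM in CV intestine. The mutant values fell within the wide spread of the CV libraries. Its log2 fold change was −0.02 (SE 0.21, edgeR adjusted p = 0.963), and the 95% interval reached from 70.9% to 137% of CV. Likewise chd9, a less studied relative, had 110, 116 and 131 CPM in chd8-/-, 112, 113 and 131 CPM in GF, and 151, 88.3 and 107 CPM in CV intestine. The log2 fold change of chd9 was 0.03 (SE 0.20, edgeR adjusted p = 0.946; 95% interval 75.6% to 138% of CV). Both intervals reach values below and above CV.

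The pair chd1 and chd2 lay lower in chd8-/- intestine without passing the threshold. CHD1 binds trimethylated lysine 4 of histone H3 through its chromodomains and keeps chromatin open in embryonic stem cells of the mouse. Its gene had 31.0, 30.0 and 31.3 CPM in chd8-/-, 53.4, 39.6 and 41.3 CPM in GF, and 39.9, 42.2 and 37.5 CPM in CV intestine. The mutant libraries were tightly grouped and below all wild type ones. The log2 fold change was −0.39 (SE 0.13, edgeR adjusted p = 0.0928). The partner gene chd2, mutated in a childhood epilepsy, had 69.9, 71.5 and 75.2 CPM in chd8-/-, 91.2, 90.2 and 74.5 CPM in GF, and 97.6, 115 and 90.5 CPM in CV intestine. All mutant values were under the CV values, while the lowest GF library overlapped them. The chd2 value of −0.50 on the log2 scale (SE 0.14, edgeR adjusted p = 0.0545) was next to the threshold. It passed in DESeq2 (adjusted p = 0.0274), in edgeR over the 9 libraries of the tissue (adjusted p = 0.0469) or with scaling by library size (adjusted p = 0.0334), without CV replicate 1 (adjusted p = 0.0325) and without CV replicate 3 (adjusted p = 0.0422). It failed in edgeR with RLE scaling (adjusted p = 0.0568) and without the filter on low counts (adjusted p = 0.0616). It also failed with replicate number as a block (adjusted p = 0.126) and with the CV counts given beside GF (adjusted p = 0.0547). The same held without any 1 chd8-/- library (adjusted p from 0.176 to 0.211) and without CV replicate 2 (−0.40, adjusted p = 0.138).

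Among the Mi-2 genes, which encode the ATPases of the NuRD complex that couples nucleosome sliding to histone deacetylation, none passed the threshold in chd8-/- intestine. For chd4a the levels were 66.2, 57.7 and 67.3 CPM in chd8-/-, 116, 82.7 and 118 CPM in GF, and 94.7, 75.4 and 89.2 CPM in CV intestine. The mutants were below all 6 wild type libraries, at 73.0% of CV (95% interval 58.2% to 91.4%, edgeR adjusted p = 0.0825). For chd4b the levels were 150, 144 and 157 CPM in chd8-/-, 200, 185 and 183 CPM in GF, and 177, 165 and 178 CPM in CV intestine. Its groups were likewise apart, by a smaller step of −0.22 (SE 0.14, edgeR adjusted p = 0.376). For chd3 the levels were 12.3, 8.67 and 13.8 CPM in chd8-/-, 17.3, 15.2 and 26.6 CPM in GF, and 19.6, 12.3 and 15.8 CPM in CV intestine. The chd3 ranges of mutant and CV overlapped, and the log2 fold change was −0.47 (SE 0.22, edgeR adjusted p = 0.219).

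The outlying family gene, chd1l, encodes a remodeller without chromodomains (ALC1 in human) that is switched on by poly(ADP-ribose) at DNA breaks. It had 12.3, 14.9 and 14.1 CPM in chd8-/-, 20.9, 18.4 and 17.7 CPM in GF, and 22.9, 25.2 and 18.4 CPM in CV intestine. Each mutant library was below each of the 6 wild type libraries. Its log2 fold change was −0.70 (SE 0.17, edgeR adjusted p = 0.0263), or 61.6% of CV (95% interval 47.7% to 79.5%).

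Counted over the family, 9 of the 10 genes had a negative log2 fold change in chd8-/- intestine, against 51.4% of all genes tested. The median was −0.46 over the 10 genes and −0.01 over all genes. In 7 of the 10 the chd8-/- and CV libraries did not overlap, against 30.4% of all genes. In 6 of the 10 (chd8, chd6, chd1, chd4a, chd4b and chd1l) every chd8-/- library was below all 6 CV and GF libraries, against 9.21% of all genes. With scaling by library size alone, the median of all genes moved by −0.13 on the log2 scale, and the calls among all genes split into 577 higher and 1555 lower, against 826 and 1077 with TMM. Under that scaling chd9 turned to −0.10, so its direction is not fixed.

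The 3 calls rested on all mutant libraries being present. With any 1 of the chd8-/- libraries left out, no family gene passed in edgeR. Calls among all genes fell from 1903 to 829, 783 and 741 without chd8-/- replicates 1, 2 and 3. The chd8 log2 fold change was then −0.51 (adjusted p = 0.158) without chd8-/- replicate 1, −0.56 (adjusted p = 0.129) without replicate 2 and −0.70 (adjusted p = 0.0598) without replicate 3. For chd6 the same omissions gave −0.77 (adjusted p = 0.0773), −0.67 (adjusted p = 0.109) and −0.74 (adjusted p = 0.0918). For chd1l they gave −0.62 (adjusted p = 0.131), −0.76 (adjusted p = 0.0762) and −0.70 (adjusted p = 0.109). Each difference thus kept its sign while its adjusted p crossed the threshold. The chd8 value moved between −0.51 and −0.70, beside an SE of 0.15 with all 6 libraries. Leaving out a CV library ended the call of chd8 without CV replicate 3 (−0.56, adjusted p = 0.0561) and that of chd1l without CV replicate 2 (−0.60, adjusted p = 0.0766). The call of chd6 stood with each CV library left out.

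**Figure D2:**
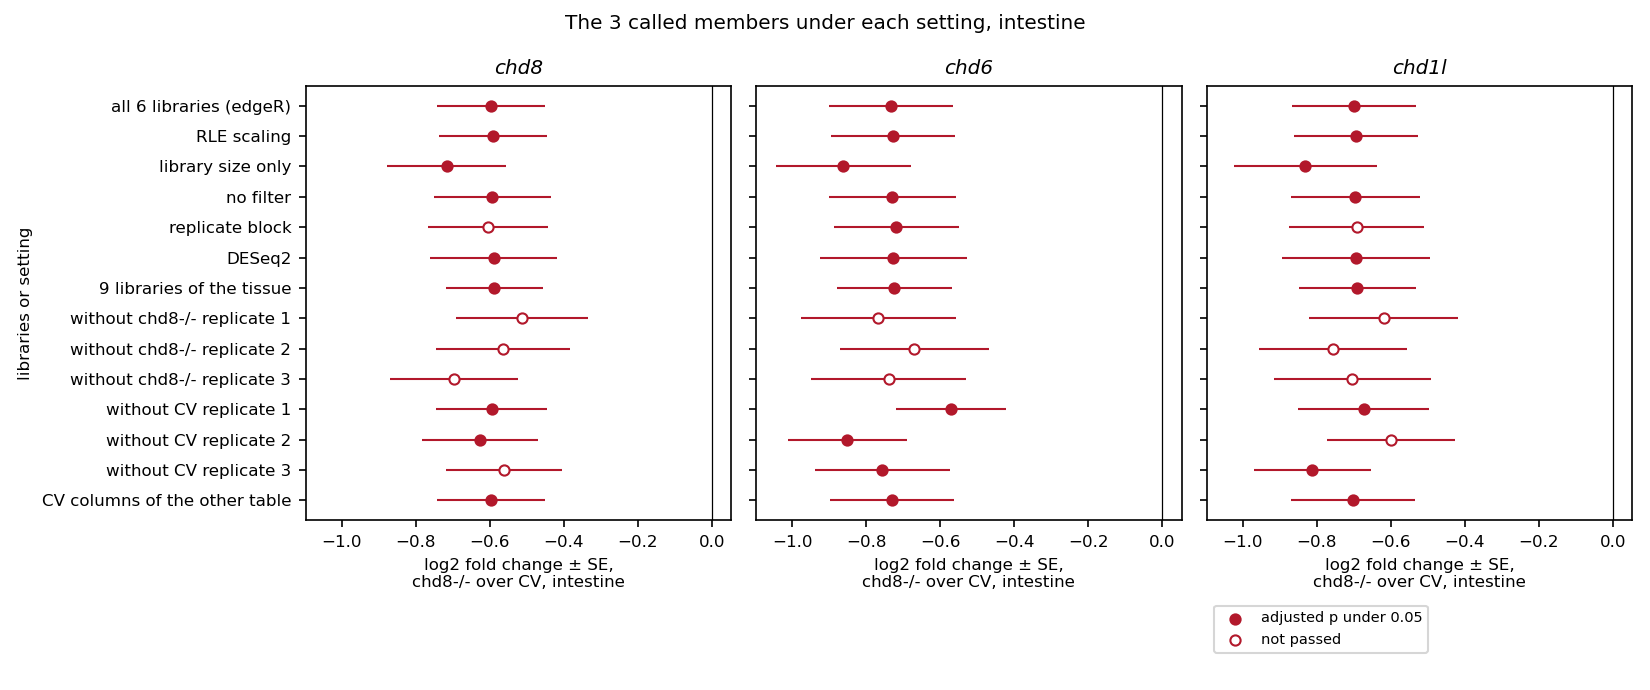
Log2 fold changes of chd8, chd6 and chd1l (chd8-/- over CV, intestine; points with bars of 1 SE) under each setting or with 1 library left out, filled where the adjusted p was under 0.05. All points lie left of 0, between −0.51 and −0.70 for chd8 with TMM scaling in edgeR, while those without a chd8-/- library are open in all 3 panels.

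In the kidney, no gene at all differed between chd8-/- and CV at this threshold (0 of 21060 tested, 0%), so no family gene did. At an unadjusted p under 0.05, edgeR listed 1895 genes and 2 family genes, chd8 and chd4a. DESeq2 called 231 genes, none of them in the family. For chd8 the log2 fold change was −0.55 (SE 0.18, edgeR adjusted p = 0.468), or 68.5% of CV (95% interval 51.7% to 90.8%). Values for chd4a were 40.6, 51.2 and 47.0 CPM in chd8-/-, 60.2, 41.0 and 62.8 CPM in GF, and 90.7, 63.9 and 65.5 CPM in CV kidney. Mutant and CV libraries of chd4a were apart by −0.69 on the log2 scale (SE 0.21, edgeR adjusted p = 0.450), although GF kidney replicate 2 was as low as the mutants. For chd1l the chd8-/- kidney libraries had 10.2, 10.2 and 10.0 CPM, GF 9.93, 6.79 and 7.55 CPM, and CV 11.99, 11.03 and 11.55 CPM. The step from CV was narrow but free of overlap (−0.21, SE 0.19, edgeR adjusted p = 0.773).

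The other relatives overlapped between chd8-/- and CV kidney. For chd6 the values were 26.5, 18.3 and 21.0 CPM in chd8-/-, 36.1, 16.6 and 31.1 CPM in GF, and 22.7, 31.8 and 32.0 CPM in CV kidney (log2 fold change chd8-/- over CV −0.43, SE 0.21, edgeR adjusted p = 0.600). For chd7 they were 58.7, 109 and 111 CPM in chd8-/-, 107, 63.1 and 129 CPM in GF, and 94.4, 136 and 114 CPM in CV kidney. A single low library in chd8-/- and another in GF set the spread of chd7, whose log2 fold change chd8-/- over CV was −0.33 (SE 0.29, edgeR adjusted p = 0.776). For chd3 the values were 16.6, 10.6 and 10.9 CPM in chd8-/-, 28.6, 7.44 and 31.6 CPM in GF, and 11.6, 27.1 and 21.7 CPM in CV kidney (log2 fold change chd8-/- over CV −0.70, SE 0.32, edgeR adjusted p = 0.575). For chd9, chd1, chd2 and chd4b the log2 fold changes lay between −0.23 and −0.19. All 10 signs were negative, against 51.4% of all genes, with a median of −0.28 over the family and −0.01 over all genes. In GF kidney over the same CV libraries 9 of the 10 were negative too, with a median of −0.20 over the family and 0.01 over all genes. In 3 of the 10 (chd8, chd4a and chd1l) mutant and CV libraries did not overlap, against 15.8% of all genes, and in 0 of the 10 were the mutants below all 6 CV and GF libraries, against 0.931% of all genes.

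The kidney values depended on CV kidney replicate 1 and chd8-/- kidney replicate 1. In the other 4 libraries edgeR called 2178 genes and 3 of the family as lower, chd8 (−0.49, adjusted p = 0.0400), chd6 (−0.71, adjusted p = 0.0122) and chd3 (−1.19, adjusted p = 0.00161). The pair left out was set by hand, and how many genes were tested without it is not given here. The 3 calls are therefore not read as a result about the family. Those 4 libraries left chd1 at 0.07, against −0.23 in all 6, and chd4a at −0.40 (adjusted p = 0.0748). With either of the libraries left out alone, none of the family passed. Both libraries also stood apart in cell type markers. The chd8-/- replicate 1 had 898 CPM of erythroid markers, against 264 and 347 CPM in its fellows, and 110001 CPM of muscle markers, against 69117 and 56694 CPM. The CV replicate 1 had 881 CPM of myeloid markers, against 290 and 287 CPM in its fellows, beside its low epidermis markers. The part of these cell types in the family's levels was not tested.

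**Figure D3:**
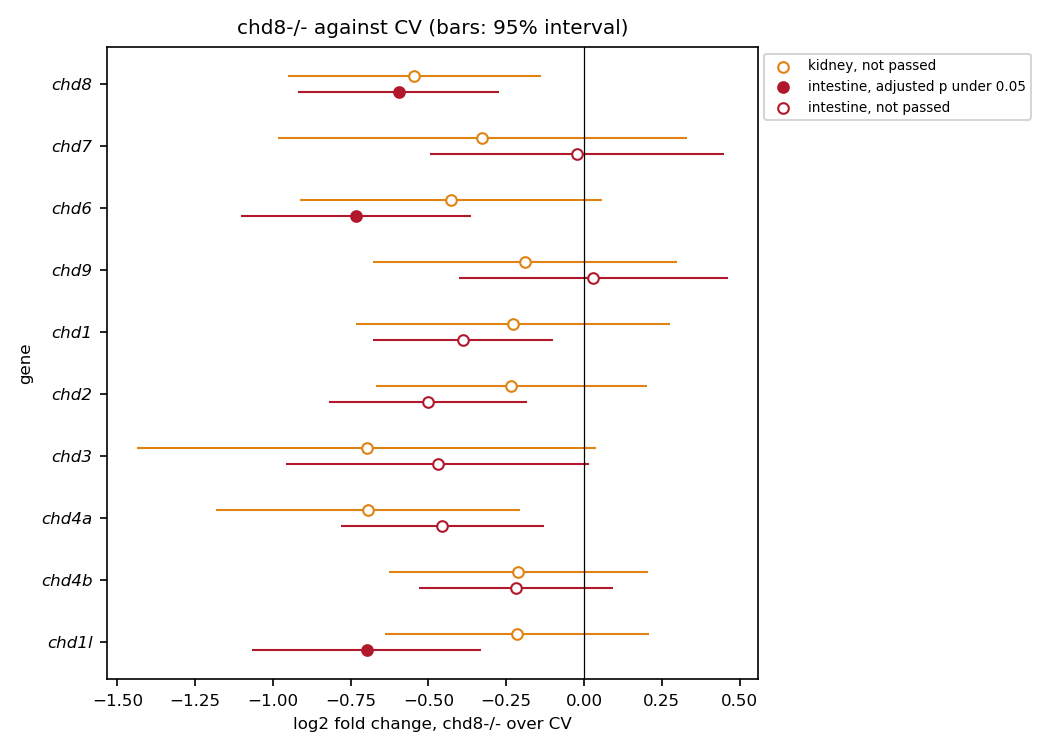
Log2 fold changes of the 10 genes, chd8-/- over CV, with 95% intervals, kidney above intestine for each gene and filled points at an adjusted p under 0.05. Filled points are chd8, chd6 and chd1l of the intestine; chd7 and chd9 of the intestine lie at −0.02 and 0.03, and every kidney point lies below 0.

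The difference between tissues in the chd8-/- effect (kidney minus intestine) was tested in a fit of all 18 libraries. It passed for 30 of 22823 genes (0.131%) and for none of the family in edgeR. At an unadjusted p under 0.05, edgeR listed 2280 genes and 1 of the family. DESeq2 called 272 genes and none of the family. The lowest edgeR adjusted p of the family was that of chd1l, with a difference of 0.50 (SE 0.24, adjusted p = 0.499). For chd8 the difference was 0.07 (SE 0.24, adjusted p = 0.959) and for chd6 0.33 (SE 0.33, adjusted p = 0.800). The calls in the intestine are therefore not shown to be particular to that tissue.

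Summed over the 4 genes of the chd8 class (chd6, chd7, chd8 and chd9), levels were 266, 278 and 324 CPM in chd8-/-, 326, 335 and 383 CPM in GF, and 390, 246 and 315 CPM in CV intestine. Mutant and CV sums overlapped, so the class as a whole was not visibly higher or lower. Within these sums chd8 took 11.9%, 12.4% and 12.7% of the reads in chd8-/-, 19.1%, 17.2% and 16.3% in GF, and 13.7%, 20.9% and 17.7% in CV intestine. Its share was below all wild type libraries there. In the kidney its mean share was 13.9% ± 1.33 in chd8-/-, 17.2% ± 0.310 in GF and 16.2% ± 1.21 in CV (SD, n = 3 each), with an overlap between mutant and CV. The 3 Mi-2 genes together had 229, 210 and 238 CPM in chd8-/-, 333, 282 and 327 CPM in GF, and 291, 253 and 283 CPM in CV intestine, apart from both wild type groups. The pair chd1 and chd2 summed to 101, 101 and 106 CPM in chd8-/-, 145, 130 and 116 CPM in GF, and 137, 157 and 128 CPM in CV intestine, also apart. All 10 genes summed to 608, 604 and 683 CPM in chd8-/-, 824, 766 and 844 CPM in GF, and 841, 681 and 743 CPM in CV intestine. Over all 10, the highest mutant sum (683 CPM) was just above the lowest CV sum (681 CPM). All mutant sums were below the GF sums. In the kidney the 10 genes summed to 515, 594 and 573 CPM in chd8-/- and 642, 724 and 694 CPM in CV fish. These did not overlap, but GF kidney (649, 492 and 677 CPM) reached below all mutant sums. The Mi-2 sums of mutant and CV kidney were apart too (182 to 213 against 241 to 259 CPM). Those of the chd8 class and of chd1 with chd2 overlapped. These shares and sums are descriptions with no test, and they count reads without regard to gene length.

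Germ-free rearing was compared with the same CV libraries, so its values and those of chd8-/- share their denominator. In the intestine 0 of 20954 genes (0%) passed in edgeR for GF over CV, with 1249 at an unadjusted p under 0.05 and none of the family among them. DESeq2 called 32 genes and none of the family. GF and CV libraries did not overlap for 2 of the 10 genes, against 11.1% of all genes. These were chd8, at 0.20 (SE 0.14, edgeR adjusted p = 0.843), and chd4b, at 0.14 (SE 0.16, edgeR adjusted p = 0.899), both higher in GF. The 95% interval for chd8 ran from 92.2% to 143% of CV. Only chd2 (−0.23) and chd1l (−0.22) had negative values in GF intestine. The chd3 value of 0.33 (SE 0.26, edgeR adjusted p = 0.856) dropped to 0.03 without GF intestine replicate 3, the library with the high neuron and retina markers. That library also held the highest level of chd5, a neuronal relative outside the 10 genes, at 4.92 CPM against 1.32 and 1.07 CPM in its fellows, and the part of such tissue was not tested.

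In the kidney, 0 of 21120 genes (0%) passed for GF over CV in edgeR, with 1856 at an unadjusted p under 0.05, chd1l being the 1 family gene among them. DESeq2 called 176 genes and none of the family. Of the 10 values 9 were negative, with a median of −0.20 over the family and 0.01 over all genes. In chd8-/- over the same CV libraries these medians were −0.28 and −0.01. Groups did not overlap for 3 of the 10 genes, chd1l, chd2 and chd4a, all lower in GF, against 15.1% of all genes. For chd1l the log2 fold change was −0.52 (SE 0.22, edgeR adjusted p = 0.565), or 69.9% of CV (95% interval 49.4% to 99.0%). For chd8 it was −0.08 (SE 0.22, edgeR adjusted p = 0.929). Without GF kidney replicate 2 the chd8 value became 0.13, chd6 became 0.23 and chd7 0.05, against −0.08 for chd8, −0.04 for chd6 and −0.21 for chd7 with all 6 libraries. The same replicate had the lowest chd3 level of its group (7.44 CPM), and neuron and retina markers summed to 77.9 CPM in it, against 244 and 185 CPM in GF kidney replicates 1 and 3, where chd3 was 28.6 and 31.6 CPM. That replicate also differed from replicates 1 and 3 in erythroid markers (261 against 961 and 641 CPM), exocrine pancreas markers (89823 against 51151 and 40485 CPM) and enterocyte markers (853 against 436 and 350 CPM). In CV kidney replicates 1, 2 and 3, chd3 was 11.6, 27.1 and 21.7 CPM. Neuron and retina markers summed to 87.9, 84.4 and 78.9 CPM there, near the sum of GF kidney replicate 2. The part of any of these tissues in the levels of the family genes was not tested.

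**Figure D4:**
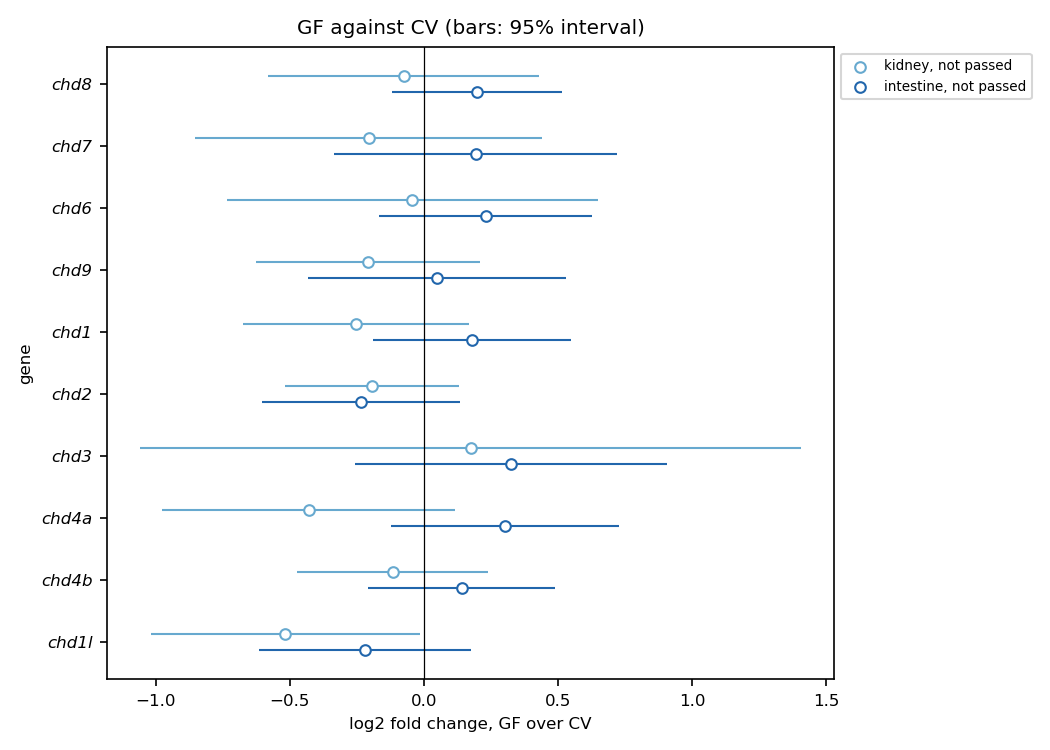
Log2 fold changes of the 10 genes, GF over CV, with 95% intervals, kidney above intestine for each gene. All points are open (adjusted p not under 0.05); chd8 lies at −0.08 in the kidney and 0.20 in the intestine, and chd3 of the kidney has the widest interval.

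The difference between tissues in the GF effect passed for 1 of 22823 genes (0.00438%) in edgeR and for none of the family. DESeq2 called 23 genes and none of the family. At an unadjusted p under 0.05, edgeR listed 1465 genes and 1 of the family. That family gene was chd4a, with a difference (kidney minus intestine) of −0.71 (SE 0.28, edgeR adjusted p = 0.760).

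Over the 6 groups, chd1l showed the widest spread of group means in the family. Its highest mean (CV intestine) was 2.74 times its lowest (GF kidney), against 1.21 times for chd9, so tissue and condition are mixed in this ratio. In GF fish, kidney over intestine, 4 of the 10 genes were lower and none higher. Background was high in this comparison, with 8000 of 22823 genes (35.1%) called and 4527 (19.8%) lower. The log2 fold changes were −1.23 for chd1l (SE 0.17, edgeR adjusted p = 2.28e-05), −0.95 for chd4a (SE 0.20, adjusted p = 0.00115), −0.51 for chd1 (SE 0.17, adjusted p = 0.0244) and −0.37 for chd4b (SE 0.14, adjusted p = 0.0492). The chd1l and chd4a calls stood with each library left out. The chd4b call ended with any 1 of the 6 libraries left out (adjusted p from 0.0771 to 0.168). The chd1 call ended without GF intestine replicate 1 (−0.36, adjusted p = 0.144), GF kidney replicate 1 (−0.46, adjusted p = 0.0832) or GF kidney replicate 2 (−0.46, adjusted p = 0.0945), and both chd1 and chd4b missed the threshold with RLE scaling (adjusted p = 0.0512 and 0.107). The chd4b call also ended without the filter on low counts (adjusted p = 0.0861) and in a fit of the 6 GF libraries alone (adjusted p = 0.0817).

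In CV fish, chd1l alone of the family differed between kidney and intestine, at −0.94 (SE 0.17, edgeR adjusted p = 0.000248), while 9061 of all genes (39.7%) were called and 4868 (21.3%) were lower. Its kidney level was 11.5 ± 0.483 CPM, against 22.2 ± 3.45 CPM in the intestine (SD, n = 3 each). In chd8-/- fish 7595 genes (33.3%) were called and none of the family. At an unadjusted p under 0.05, edgeR listed 9642 genes, with chd1l and chd4a among them. DESeq2 called 8391 genes and none of the family. There chd1l stood at 10.1 ± 0.102 CPM in kidney and 13.8 ± 1.31 CPM in intestine, which is −0.44 on the log2 scale (SE 0.17, edgeR adjusted p = 0.0571). Its kidney values were lower than its intestine values in all 3 conditions with no overlap. For chd8, kidney over intestine gave −0.04 in chd8-/-, −0.37 in GF and −0.11 in CV fish, none past the threshold (edgeR adjusted p = 0.880, 0.109 and 0.658). Of 25 proliferation markers, 5 were lower in the kidney in chd8-/-, 21 in GF and 15 in CV fish, and 0, 1 and 1 were higher. Of all 22823 genes, 3978 were lower in chd8-/-, 4527 in GF and 4868 in CV fish. The 5 in chd8-/- are near that background and are not read as a result about these markers. The part of proliferation markers in the levels of the family genes was not tested. With scaling by library size alone, the median of all genes moved by −0.12 in both the GF and the CV comparison.

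**Figure D5:**
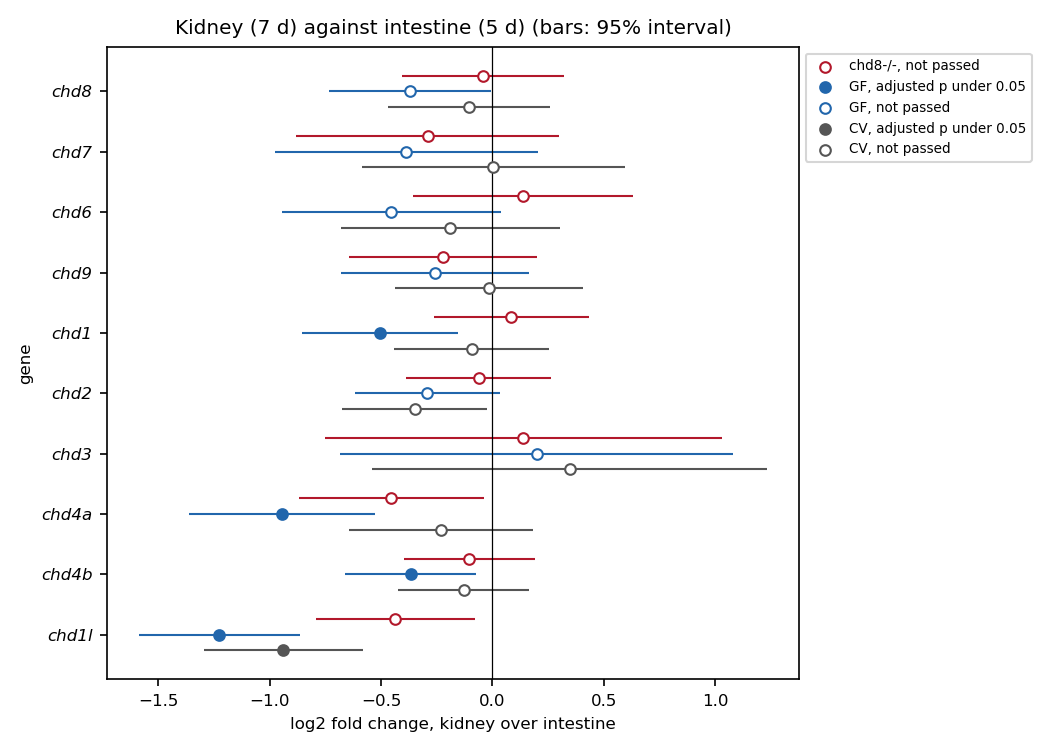
Log2 fold changes of the 10 genes, kidney at 7 days over intestine at 5 days, with 95% intervals, for chd8-/-, GF and CV fish from top to bottom within each gene. Filled points (adjusted p under 0.05) are chd1l in GF (−1.23) and CV (−0.94), and chd4a, chd1 and chd4b in GF; chd3 is the 1 gene with positive values in all 3 conditions.

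Partners and relatives of the family were counted as lists in chd8-/- over CV intestine, where 5.19% of all genes were lower and 3.98% higher. With lists this short, nothing particular to a list is read from counts of 1 or 2 genes beside these shares. Of 14 NuRD subunits other than the Mi-2 genes, 1 was lower and none higher (median 0.01), the histone-binding subunit RBBP4 at −1.24 (SE 0.23, edgeR adjusted p = 0.00710), which missed the threshold without chd8-/- replicate 2 (adjusted p = 0.0547). Of 25 other Snf2-type ATPases, 5 were lower and none higher (median −0.22, against −0.01 over all genes). They included the recombination motors RAD54B (−2.41, adjusted p = 0.00488) and RAD54L (−1.79, adjusted p = 0.00245), both called with each library left out, the mitotic helicase ERCC6L (−1.06, adjusted p = 0.0182) and 1 of 2 genes with the symbol SMARCAD1 (−1.16, adjusted p = 0.0251). The ERCC6L call ended without chd8-/- replicate 2, chd8-/- replicate 3 or CV replicate 2, and the SMARCAD1 call without any 1 of these or without chd8-/- replicate 1 (highest adjusted p 0.0946 and 0.122). Both RAD54 genes were at low levels. RAD54B had 0.221, 0.546 and 0.612 CPM in chd8-/- against 2.39, 2.59 and 2.31 CPM in CV intestine. RAD54L had 1.74, 1.24 and 1.26 CPM against 4.62, 5.56 and 4.31 CPM. Proliferation markers were lower in the same libraries, as given above, and their part in the values of these ATPases was not tested.

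Of 28 BAF and PBAF subunits, 2 were lower and none higher, ACTL6A (−0.92, edgeR adjusted p = 0.00908) and 1 of 2 genes named BCL7B (−1.10, adjusted p = 0.0187). None of 23 tested histone H3 lysine 4 methyltransferases and their core partners passed. Of 28 chromatin and transcription regulators linked to autism in human, 1 was lower, a gene with the symbol PHF21A (−1.09, adjusted p = 0.0166), and none was higher. Of 27 genes of the p53 pathway, 2 were higher and none lower (median 0.15). These were the DNA damage sensor XPC (0.86, adjusted p = 0.00398) and the cyclin CCNG1 (0.81, adjusted p = 0.0117). XPC had 36.5, 38.6 and 43.9 CPM in chd8-/- against 21.8, 21.6 and 21.5 CPM in CV intestine and was called with each library left out. The calls of ACTL6A and PHF21A ended without chd8-/- replicate 1 or 3, that of CCNG1 without any chd8-/- library, and that of BCL7B without any chd8-/- library or CV replicate 2 (highest adjusted p 0.0691, 0.0967, 0.0642 and 0.103). In chd8-/- over CV kidney, and in GF over CV in both tissues, no gene of these lists passed, and neither did any other gene (0% of all genes), so nothing about the lists is read from it.

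Across the 6 group means, the genes whose profile was nearest to that of chd8 were GPT2 (root mean square distance 0.031 on the log2 scale, after centring), PHLDB1 (0.056), ABCB6 (0.063), JARID2 (0.068) and MICAL3 (0.080), out of 13006 genes with a mean of at least 5 CPM. Of the family, chd6 ranked 4 among all these genes (distance 0.064). The other 8 family genes were farther away, with chd1 at rank 83, chd3 at 155, chd4b at 183, chd2 at 338, chd4a at 413, chd7 at 547, chd9 at 1512 and chd1l at 5516. The profile of chd8 spans 0.82 on the log2 scale between its lowest and its highest group. The points share their libraries and depth, and no test was made.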

How the data were processed

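The deposited values are whole-number read counts per Ensembl gene, raw and not normalized, which the authors placed in 4 tables, 1 per tissue and comparison with CV. The submitters' processing notes name FastQC 0.11.9, Trim Galore 0.6.7, STAR 2.7.9a, Subread 2.0.1 and featureCounts, with the build GRCz11. Strandedness and the rule for multi-mapping reads are not stated there, so counts of similar copies may share or lose reads, and the likeness of chd4a and chd4b in sequence was not examined. The CV kidney columns of both tables were identical. The CV intestine columns were the same 3 libraries under other numbers, with equal counts in 72.8% to 80.9% of genes, and they are named here by the numbering of the chd8-/- table.

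Counts were tested in R 4.3.3 with edgeR 4.0.16 (TMM, filterByExpr, robust quasi-likelihood F-test, Benjamini-Hochberg over all genes, threshold 0.05). The 4 comparisons with CV each used the 6 libraries of their own table, and the tissue contrasts and differences between tissues used 1 fit of 18 libraries. SE was derived from the log2 fold change and the F statistic. DESeq2 1.42.0, RLE scaling, scaling by library size, no filter, a replicate block, more or fewer libraries and the omission of each library were alternatives. The steps were tested on simulated data. Symbols came from a gene name table (29201 of 32520 identifiers). Every family gene is named, and from each list the called genes, at most 4 per comparison. Members and lists were chosen with earlier results of these data known. No pairing is stated in the labels, so none was used. In kidney over intestine of GF fish, deviations of same-numbered libraries correlated at −0.13, 0.26 and 0.14. Those of other-numbered libraries correlated at −0.30 to 0.27. The CV intestine numbers differ between the tables, so such values cannot show whether samples were paired. The precision is set by 3 libraries a group and by totals of 26809112 to 36624972 counts.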

Additional observations from a re-analysis of the deposited data

How the results depend on the processing

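Over the alternatives other than leaving out 1 library, 503 of 530 values of family genes kept direction and side of the threshold. Of the rest, 10 reversed, 9 came to pass and 8 no longer passed. With 1 library left out it was 458 of 516, 36, 2 and 20. Most of these values belong to genes that had not passed with all libraries, so the totals mainly describe such genes. The 8 and the 20 that no longer passed all came from genes called with all libraries. In chd8-/- over CV intestine, 5 family genes passed with scaling by library size (chd9 −0.10 there) and 0 to 4 with 1 library left out, when the chd8 log2 fold change ran from −0.70 to −0.51, chd7 from −0.24 to 0.19, chd9 from −0.13 to 0.27 and the genes called from 741 to 3069. A replicate block left 1 family gene (chd6), chd8 at −0.60 (adjusted p = 0.0568) and chd7 at 0.017, but the numbers pair no samples. In chd8-/- over CV kidney, without CV replicate 1 and chd8-/- replicate 1, 3 family genes passed, with chd8 at −0.49 and chd1 at 0.066. These counts of family genes are not read as a result about the family. Genes called in that kidney comparison were 4 without the filter, 231 in DESeq2, 1 over 9 libraries and 2178 without that pair. With 1 library left out they were 0 to 139, and chd8 ran from −0.65 to −0.44 and chd1 from −0.35 to −0.078. In GF over CV, genes called were 3 by library size, without the filter or over 9 libraries of the intestine, 32 in DESeq2 and 0 to 2 with 1 library left out; in the kidney they were 1 without the filter or over 9 libraries, 176 in DESeq2 and 944 without CV replicate 1 and GF replicate 2, where chd8 turned to 0.09 and chd6 to 0.09 (chd6 0.028 by library size).

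With 1 library left out, GF over CV values ran from −0.034 to 0.42 for chd7 and −0.13 to 0.30 for chd9 in the intestine, and from −0.20 to 0.13 for chd8, −0.44 to 0.048 for chd7, −0.29 to 0.23 for chd6 and −0.15 to 0.60 for chd3 in the kidney. Kidney over intestine in chd8-/- ran from −0.15 to 0.071 for chd8, −0.024 to 0.25 for chd6, −0.029 to 0.21 for chd1, −0.23 to 0.064 for chd2 and −0.10 to 0.28 for chd3. In GF it ran from −0.13 to 0.67 for chd3, with 2 to 3 family genes and 6514 to 7690 of all genes passing. In CV it ran from −0.21 to 0.21 for chd7, −0.18 to 0.22 for chd9 and −0.24 to 0.032 for chd1. Between tissues, 1 family gene (chd4a) passed for chd8-/- in a fit of its 6 libraries. For GF 2 passed with RLE scaling, where 3857 of all genes were higher and 4151 lower. With a replicate block 2 passed for GF as well (edgeR adjusted p = 0.0810 for chd1 and 0.136 for chd4b). For CV 2 passed by library size, where 3446 of all genes were higher and 5363 lower, and chd7 was −0.13. These counts are not read as a result about the family. The chd9 value in CV was 0.027 with RLE scaling or DESeq2 and 0.022 with the block. The tissue difference of the chd8-/- effect gave 272 genes in DESeq2 and 8 to 41 with 1 library left out, and its split of 12 higher and 18 lower became 27 and 17 by library size; that of the GF effect gave 23 and 0 to 3, and the chd6 value ran from −0.49 to 0.050 and that of chd8 for chd8-/- from −0.035 to 0.18. The causes were not tested. With 3 libraries a group, a gene that did not pass is not shown to be unchanged.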
